A study of Homo sapiens with 7 samples.

Results

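EEF1A1, EEF1B2, EEF1D, EEF1G and EEF2 encode the factors that bring aminoacyl-tRNA to the ribosome and move the ribosome along the mRNA, and TPT1, NACA, BTF3 and NPM1 encode 4 further proteins of growing cells. The 9 genes were taken by symbol from the 3 deposited tables of poly(A) site counts, sense strand only, and are 9 of the 16045 genes listed there. They held 19 poly(A) sites (PASs) in the table of 4 conditions, 23 in the table of the double knockdown (KD) and 23 in the table of batch 2.

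The human embryonic kidney line HEK293 had received siRNAs, either a control (siCtrl) or those directed at 1 of the 3 nuclear poly(A) polymerases, Star-PAP (siStar-PAP), PAPα (siPAPα) and PAPγ (siPAPγ), or at both PAPα and PAPγ (siPAPα+siPAPγ). 3′READS, which sequences the end of an RNA next to its poly(A) tail, was run on total RNA. Batch 1 comprised 1 library of each single KD and 1 of siCtrl, the double KD had 1 library and was tabulated with the siCtrl of batch 1, and batch 2 comprised 1 siCtrl and 1 siStar-PAP library made with 3′READS+. The study checked each KD at the protein level by immunoblot. It states that replicate cell samples gave the RNA for 3′READS, without naming the libraries. Tests over the batches had batch as a term. Their p-values therefore measure how far the change under siStar-PAP differs between the 2 batches, which differ in protocol too. The fit also draws on the spread of other genes.

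A 3′READS read marks 1 RNA end, so that levels of different genes can be compared without a correction for length. Levels are given as reads per 1000000 PASS reads (RPM), where PASS reads are those that carry at least 2 untemplated Ts and thus support a PAS. The tables held 2347192 to 16191098 sense reads per library. Intervals are exact at the 95% level and cover counting error only, not the spread between replicate samples. The study's methods describe no removal of PCR duplicates, which, if present, would make these intervals too narrow. Fewer cells of a kind and less RNA per cell cannot be told apart in such bulk RNA.

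eEF1A binds aminoacyl-tRNA and GTP, the eEF1B subunits encoded by EEF1B2, EEF1D and EEF1G recharge eEF1A with GTP, and eEF2 drives translocation. NACA and BTF3 encode the subunits of the nascent polypeptide-associated complex, which meets new proteins as they leave the ribosome, TPT1 encodes the growth-related protein TCTP, and NPM1 encodes nucleophosmin, a chaperone of the nucleolus. Many mRNAs of this kind begin with a 5′ terminal oligopyrimidine (TOP) tract, a C followed by a run of pyrimidines, through which their translation follows growth signals.

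The first 20 bases of the genes are shown to check the name TOP mRNA (RefSeq starts on GRCh38.p14, capitals mark the tract of a C and at least 4 pyrimidines after it).
EEF1A1, chr6:73521013-73521032, minus strand: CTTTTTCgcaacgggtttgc
EEF2, chr19:3985444-3985463, minus strand: CTCTTCCgccgtcgtcgccg
EEF1B2, chr2:206159895-206159914, plus strand: CCTTTTTCCTCTCTTCagcg
TPT1, chr13:45341164-45341183, minus strand: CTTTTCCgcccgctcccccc
NACA, chr12:56725280-56725299, minus strand: CTTTCTgccgccatcttggt
BTF3, chr5:73498442-73498461, plus strand: CCCTTTagctgccatcttgc
NPM1, chr5:171387849-171387868, plus strand: CTTTCCCTggtgtgattccg
EEF1B2, second annotated start, chr2:206159609-206159628, plus strand: agcctcgaggccgggcgtct
NPM1, second annotated start, chr5:171387116-171387135, plus strand: gggcgatgtccttgctaatt
EEF1G, chr11:62573872-62573891, minus strand: actttgcggcagcgccgaga

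Of the 8 genes with an entry, 7 (87.5%) had a tract at an annotated start, against 5.14% of 27305 genes and 47 of 64 cytosolic ribosomal protein genes (73.4%). With a tract allowed to begin within 10 bases of the start, these were 87.5%, 38.4% and 90.6%. EEF1G had none at its start, and EEF1B2 and NPM1 each had another annotated start without one. No start was at hand for EEF1D.

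The 30 bases upstream of and including the PASs on which the results turn are shown on GRCh37, which has the coordinates of the files' hg19, with the AATAAA or ATTAAA nearest the site, the signal for cleavage, in capitals.
NPM1 intronic PAS, chr5:170833706-170833735, plus strand: gctcAATAAAtatttgaatgcatcaattaa
NPM1 last-exon PAS, chr5:170837875-170837904, plus strand: attttAATAAAgtagcacggtttctattga
TPT1 proximal PAS, chr13:45911312-45911341, minus strand: ttgtctaaaAATAAAatgcatttaaactca
TPT1 middle PAS, chr13:45911114-45911143, minus strand: gttgcAATAAAgggaaagaccatgctcata
TPT1 distal PAS, chr13:45911005-45911034, minus strand: agagAATAAAaagagactcattcagtggaa
BTF3 proximal PAS, chr5:72801291-72801320, plus strand: acaaagattAATAAAgttctttgcctagta
BTF3 distal PAS, chr5:72801463-72801492, plus strand: aaggtggtataaagttctcaggtttgaaaa
EEF1A1 PAS, chr6:74227238-74227267, minus strand: tgagacccATTAAAaaagttaaatgagaaa
EEF2 PAS, chr19:3976054-3976083, minus strand: attggaatAATAAAtttgataaggtggtga

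AATAAA or ATTAAA stood within 40 nt upstream of 20 of the 29 PASs of the 9 genes (69.0%), against 62.4% of the 51882 PASs of the table of 4 conditions. The letters ATA, the DNA form of an AUA element described for Star-PAP, were found between 100 and 41 nt upstream of 10 of the 29 (34.5%), against 59.5% of all PASs. The main sites of EEF2, NACA and EEF1B2, the proximal and distal PAS of TPT1 and both intronic positions of NPM1 were without them. Among those with them were the NPM1 last-exon sites at 170837885 and 170837904, the middle PAS of TPT1 and the proximal, middle and distal PAS of BTF3. The 29 PASs came from the libraries of both batches and the double KD, those of all genes from the 4 conditions only.

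The KDs, which the study had checked by immunoblot of the proteins, were first checked here in the reads of their own genes. TUT1, which encodes Star-PAP, had 83 reads in siCtrl and 2 in siStar-PAP of batch 1, with a log2 ratio of -5.91 (interval -8.98 to -4.01). In batch 2 it had 6 reads in siCtrl and 4 in the library labelled siStar-PAP (-0.34, interval -2.60 to 1.74). This is an interval that includes no change and lies above that of batch 1, so that these counts do not bear out the label. PAPOLA had 71 reads in siCtrl, 12 in siPAPα and 8 in the double KD. PAPOLG had 5 reads in siCtrl, 15 in the library labelled siPAPγ and 6 in the double KD. Set against siCtrl, these counts do not bear out the label (log2 ratio 1.21 in the library labelled siPAPγ, interval -0.32 to 3.03). PAPOLG had 28 reads in siStar-PAP of batch 1 and 36 in siPAPα. In RPM both stood above the library labelled siPAPγ and the double KD. With so few reads in siCtrl, the PAPOLG counts do not decide whether the label holds. Of the genes taken as markers of HEK293, which is known for epithelial and neuronal transcripts, KRT18 had 11580 to 37608 reads per library, INA 492 to 3838, VIM 340 to 2019, NEFL 159 to 781, NEFM 1 to 280 and KRT8, the usual partner of KRT18, 2 to 59. Of markers of other cell types, PTPRC, CD3E, ALB, PECAM1, CDH5 and MYH6 were not listed, APOA1 had 0 to 44 reads and DES 0 to 3.

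The 9 genes differed widely in counted level, and only some of them were abundant by these counts. In siCtrl of batch 1, BTF3 was highest at 775 RPM (759 to 792), followed by EEF2 at 508 RPM (495 to 522), EEF1D at 435 RPM (423 to 447), NACA at 261 RPM (252 to 271), TPT1 at 125 RPM (119 to 132) and NPM1 at 60.1 RPM (55.7 to 64.8). EEF1G at 8.75 RPM (7.12 to 10.6), EEF1A1 at 7.35 RPM (5.86 to 9.10) and EEF1B2 at 2.54 RPM (1.70 to 3.64) were listed far lower, and the intervals of EEF1G and EEF1A1 overlapped. Among the 14296 genes with reads, BTF3 ranked 124 and EEF2 190, but EEF1G ranked 6151, EEF1A1 6661 and EEF1B2 9739. The 3 genes with low counts are therefore called here by name. Their counts of uniquely mapped reads do not show whether their mRNAs are abundant, for the reason given next.

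The files hold uniquely mapped reads, and several of these genes have near-identical copies in the genome. The 100 nt that end at the EEF1A1 PAS shown above had 15 copies at 95% identity or more, the best of them at 100%, those of EEF1B2 had 6, those of NACA 4, those of NPM1 2 or 15 in the last exon, those of BTF3 (proximal) 2, those of EEF1D (last exon), EEF1G (position 62327068) and TPT1 (proximal) 1 each and those of EEF2 none. GENCODE lists 49 pseudogenes named after EEF1A1, 49 after NPM1, 16 after BTF3, 15 after TPT1 and none after EEF2. At sites with copies, the counts may leave out reads that fit more than 1 place, and the levels of all genes but EEF2 are uncertain for that reason.

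**Figure D1:**
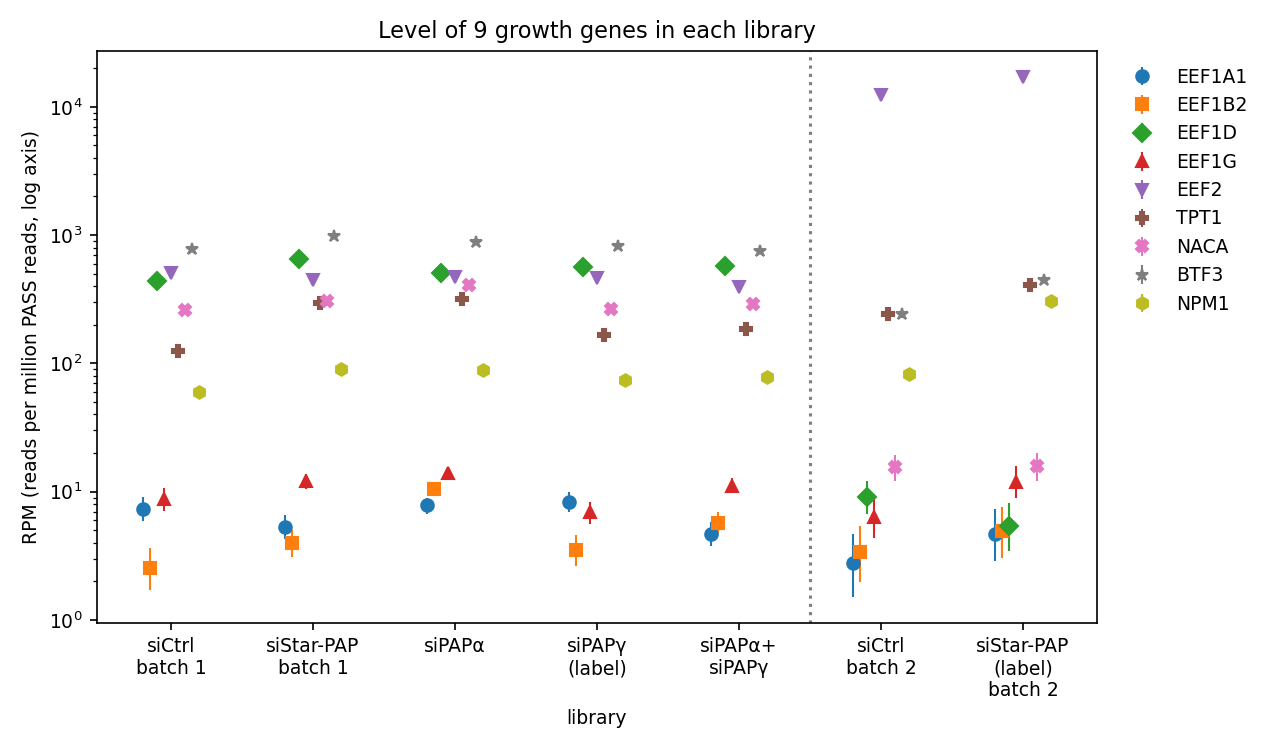
Level of the 9 genes in each of the 7 libraries, in RPM on a log axis, with 95% counting intervals; the dotted line parts the libraries of batch 1 and the double KD from those of batch 2. EEF2 stood at 397 to 508 RPM left of the line and at 12425 and 17022 RPM right of it, and EEF1D at 435 to 647 and at 9.11 and 5.41 RPM.

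Together the 9 genes held 0.218% of PASS reads in siCtrl of batch 1, 0.279% under siStar-PAP, 0.272% under siPAPα, 0.238% in the library labelled siPAPγ and 0.230% in siPAPα+siPAPγ. Their share was 1.30% for siCtrl and 1.82% for the library labelled siStar-PAP of batch 2. EEF2 supplied 95.4% and 93.4% of these reads in batch 2, against 16.0 to 23.3% in the other libraries.

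The siCtrl libraries of the batches, which differ in protocol, were further apart for EEF2, EEF1D, NACA and BTF3 than any KD and its siCtrl. EEF2 was 24.4-fold higher in siCtrl of batch 2, where it ranked 2 among all genes, whereas EEF1D was 47.7-fold lower, NACA 16.9-fold lower and BTF3 3.21-fold lower. Of the 8 genes with at least 50 reads in this pair, 3 differed by more than 10-fold, against 1126 of 9621 genes (11.7%). NACAP1, a processed pseudogene of NACA, had 0, 1, 7, 3 and 4 reads in the other libraries (siCtrl, siStar-PAP, siPAPα, the library labelled siPAPγ and the double KD), but 2718 in siCtrl and 2858 in the library labelled siStar-PAP of batch 2. NACA and NACAP1 together had 261 RPM in siCtrl of batch 1 and 554 RPM in siCtrl of batch 2. Whether reads of NACA were placed at NACAP1 in batch 2 was not tested. Because of the difference between batches, the KDs are compared with siCtrl only within a table.

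The KDs were compared with their siCtrl to ask how far the levels of the 9 mRNAs depend on each poly(A) polymerase. In every KD library the median of the 9 genes stood above that of all genes. Their median log2 ratio to siCtrl was 0.46 in siStar-PAP, where that of all 10139 genes with at least 50 reads was -0.45, and 0.55 against -0.26 in siPAPα, 0.18 against -0.33 in the library labelled siPAPγ, 0.39 against -0.38 in the double KD and 0.76 against -0.16 in the library labelled siStar-PAP of batch 2 (7 genes with at least 50 reads). Cytosolic ribosomal protein genes, the largest group of TOP mRNAs, had medians of 0.48, 0.59, 0.19, 0.27 and 0.66 in the same order. The 4 ratios of batch 1 and the double KD share 1 siCtrl library and are no replicates of each other, and with 1 library per condition none of them has a replicate check.

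In siStar-PAP of batch 1, 4 of the 9 genes were more than 1.4-fold above siCtrl, against 12.5% of genes, and none was more than 1.4-fold below, against 48.2%. In siPAPα, 5 were above (19.9% of genes), in the library labelled siPAPγ none (14.6%) and in the double KD 2 (16.8%), and none was below in these 3 libraries (40.9%, 42.3% and 45.7%). In batch 2, 4 of 7 were above (14.6%) and EEF1D, with 46 and 23 reads, was below (log2 ratio -0.75, interval -1.54 to 0.00; 31.4%). Relative to the median gene of each comparison, 7, 5, 5, 7 and 5 genes were more than 1.4-fold above, against 27.3%, 28.9%, 26.1%, 29.3% and 21.1% of genes, and 0, 0, 0, 0 and 1 were more than 1.4-fold below, against 28.8%, 30.2%, 27.6%, 30.7% and 23.3%.

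**Figure D2:**
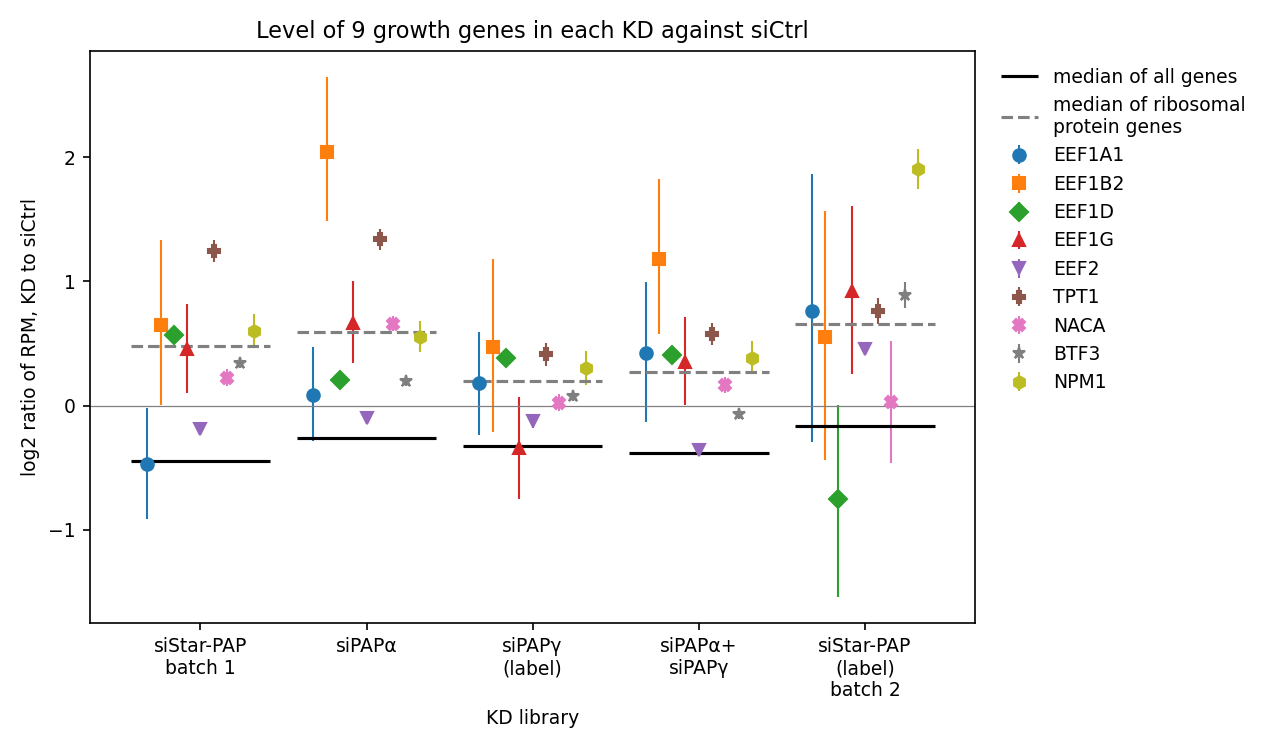
Log2 ratio of RPM in each KD library to its siCtrl for the 9 genes, with 95% counting intervals; black lines give the median of all genes and dashed lines that of cytosolic ribosomal protein genes. TPT1 stood at 0.41 to 1.34 and NPM1 at 0.30 to 1.90 in the 5 comparisons, while EEF2 lay between -0.36 and 0.45.

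Among the elongation factors, the eEF1A gene had few reads. EEF1A1 stood at 7.35 RPM in siCtrl, 5.32 under siStar-PAP, 7.81 under siPAPα, 8.31 in the library labelled siPAPγ and 4.68 in the double KD, whose table lists 2 of its PASs fewer and gives siCtrl as 3.50 RPM (log2 ratio 0.42, interval -0.14 to 1.00), and at 2.77 and 4.71 RPM in siCtrl and the library labelled siStar-PAP of batch 2. These are 14 to 196 reads per library, and the interval of the log2 ratio lay off 0 only in siStar-PAP of batch 1 (-0.47, interval -0.92 to -0.02).

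EEF1B2, the exchange subunit eEF1Bα, stood at 2.54 RPM in siCtrl, 3.99 under siStar-PAP, 10.4 under siPAPα, 3.51 in the library labelled siPAPγ and 5.75 in the double KD, and at 3.37 and 4.94 RPM in batch 2. The siPAPα library stood apart, with 262 reads against 29 in siCtrl, a log2 ratio of 2.04 (1.48 to 2.65) that exceeded those of 98.7% of genes. The log2 ratio of the double KD was 1.18 (0.58 to 1.82). Its interval overlapped those of siPAPα, siStar-PAP of batch 1 (0.00 to 1.34) and the library labelled siPAPγ (-0.21 to 1.18). All of these ratios rest on the same 29 siCtrl reads.

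EEF1D, the exchange subunit eEF1Bδ, stood at 435 RPM in siCtrl, 647 under siStar-PAP, 503 under siPAPα, 567 in the library labelled siPAPγ and 578 in the double KD, all 4 above siCtrl beyond counting error. Batch 2 had 9.11 RPM in siCtrl and 5.41 in the library labelled siStar-PAP, with 46 and 23 reads. There 24 of the 46 siCtrl reads lay at an intronic PAS (52.2%, interval 36.9 to 67.1%), while 4971 of the 4971 reads of siCtrl in batch 1 lay at the last-exon PAS (99.6% in the table of the double KD, which lists more sites).

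EEF1G, the structural subunit eEF1Bγ, stood at 8.75 RPM in siCtrl, 12.0 under siStar-PAP, 13.9 under siPAPα, 6.89 in the library labelled siPAPγ and 11.2 in the double KD, and at 6.34 and 12.0 RPM in batch 2. The gene lies on the minus strand of chromosome 11 with TUT1, the Star-PAP gene, 959 bp upstream of it on the same strand. In siStar-PAP of batch 1 and the library so labelled in batch 2 the log2 ratio of EEF1G was 0.46 (0.10 to 0.82) and 0.92 (0.26 to 1.61). It was 0.66 (0.34 to 1.00) in siPAPα, 0.35 (0.00 to 0.71) in the double KD and -0.34 (-0.76 to 0.07) in the library labelled siPAPγ. TUT1 stood there at 9.09, 8.94 and 5.61 RPM, against 7.26 in siCtrl.

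EEF2 was the elongation factor with the least difference between libraries of batch 1. It stood at 508 RPM in siCtrl, 446 under siStar-PAP, 475 under siPAPα, 465 in the library labelled siPAPγ and 397 in the double KD, all below siCtrl beyond counting error, while its log2 ratios were 0.03 to 0.25 above that of the median gene. In batch 2 the library labelled siStar-PAP was the higher one, with 17022 RPM against 12425 RPM in siCtrl (log2 ratio 0.45, interval 0.44 to 0.47), opposite to the -0.19 (-0.24 to -0.14) of batch 1.

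TPT1 was higher than its siCtrl in all 5 KD libraries beyond counting error. It stood at 125 RPM in siCtrl, 297 under siStar-PAP, 317 under siPAPα, 167 in the library labelled siPAPγ and 187 in the double KD, and at 241 and 408 RPM in siCtrl and the library labelled siStar-PAP of batch 2. Its log2 ratios of 1.24 (1.16 to 1.33) in siStar-PAP and 1.34 (1.26 to 1.42) in siPAPα exceeded those of 97.2% and 95.4% of genes.

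NACA stood at 261 RPM in siCtrl, 305 under siStar-PAP, 412 under siPAPα, 265 in the library labelled siPAPγ and 292 in the double KD, and at 15.4 and 15.8 RPM in batch 2. Counted with NACAP1, its log2 ratio in the library labelled siStar-PAP of batch 2 was 0.31 (0.24 to 0.39) rather than 0.03 (-0.46 to 0.52), and in batch 1 it was 0.23 with and 0.22 without the pseudogene. BTF3, its partner in the complex, stood at 775 RPM in siCtrl, 983 under siStar-PAP, 888 under siPAPα, 819 in the library labelled siPAPγ and 748 in the double KD, and at 241 and 447 RPM in batch 2. The 2 subunits thus differed in siPAPα, where the log2 ratio was 0.66 (0.60 to 0.72) for NACA and 0.20 (0.16 to 0.23) for BTF3, with intervals that did not overlap.

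NPM1 stood at 60.1 RPM in siCtrl, 91.2 under siStar-PAP, 88.3 under siPAPα, 74.1 in the library labelled siPAPγ and 78.3 in the double KD, and at 82.8 and 309 RPM in siCtrl and the library labelled siStar-PAP of batch 2. All 5 KD libraries were above their siCtrl beyond counting error, and the log2 ratio of 1.90 (1.74 to 2.06) in batch 2 exceeded that of 99.7% of genes.

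Star-PAP KD is the one condition with 2 libraries, and it was tested over both batches with batch as a block, although TUT1 counts bear out the KD in batch 1 only. NPM1 and TPT1 rose and the other 7 genes did not pass the test. NPM1 rose by 1.60 ± 0.35 (log2, SE, 2 libraries per group; adjusted p = 0.0191, edgeR's quasi-likelihood test with Benjamini-Hochberg adjustment over 11614 genes) and TPT1 rose by 1.35 ± 0.35 (adjusted p = 0.0440). These are 2 of 9 genes, where 1.21% of all genes were called higher and 1.08% lower.

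The other estimates were 1.03 ± 0.43 for EEF1G, 0.97 ± 0.35 for BTF3 and 0.97 ± 0.66 for EEF1B2 (edgeR adjusted p = 0.243, 0.167 and 0.529). Those of NACA (0.51), EEF2 (0.48), EEF1D (0.45) and EEF1A1 (0.43) were smaller. All 9 were above 0, with a median of 0.97 against -0.01 for all genes and 0.88 for 72 cytosolic ribosomal protein genes. The calls of NPM1 and TPT1 rested on TMM or similar factors: with library sizes set to PASS read totals, edgeR gave adjusted p = 0.133 for NPM1 and 0.147 for TPT1, and with table totals they were 0.0892 and 0.113. Without the block, the estimate of NPM1 was 0.68 without the batch 2 library labelled siStar-PAP and 2.41 without siStar-PAP of batch 1, and that of TPT1 was 0.79 without siCtrl of batch 1. In that fit, with all 4 libraries, edgeR called 0 genes, with 62 at an unadjusted p under 0.05 and none of the 9 among them.

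Other genes of translation elongation and their relatives were counted in the same edgeR fit. Of 15 genes tested from a list of other elongation, termination and recycling factors, 2 rose and none fell, where 1.21% of all genes were called higher. The list also held EEF2K, EEF1E1, LARP1 and LARP4, which are no such factors. Its median log2 change was -0.15, with 7 of the 15 above 0. Those that rose were GSPT1, which encodes a release factor (log2 change 2.05, edgeR adjusted p = 0.00547), and HBS1L, a factor for stalled ribosomes (1.54, adjusted p = 0.0290). Neither is an elongation factor. None of 10 enzymes that modify eEF1A or eEF2 and none of 5 mitochondrial elongation factors passed the test; the extremes were DPH5 (0.82, adjusted p = 0.278) and N6AMT2 (-1.18, adjusted p = 0.162), and GUF1 (0.94, adjusted p = 0.361) and TSFM (-0.55, adjusted p = 0.700).

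A further list held paralogues of NACA, BTF3 and NPM1 together with NCL, FBL, NAP1L1 and SET, which are no paralogues of them. Of its 8 tested genes, 1 fell, NACAD, a NACA paralogue (-2.00, edgeR adjusted p = 0.0416). Of 11 other TOP mRNAs, 1 rose, EIF3L, a subunit of initiation factor eIF3 (2.06, adjusted p = 0.00585), and the estimates of all 11 were above 0 (median 0.79). Of the 72 cytosolic ribosomal protein genes, 4 rose, among them RPL13A, RPL27A and RPL23A (log2 changes 2.69, 1.38 and 1.31), and none fell.

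Use of PASs was compared as the share of a gene's reads at each site, and NPM1 stood out. NPM1 transcripts ended either in the last exon or at an intronic PAS, and the intronic share was higher in every KD library than in its siCtrl. Of NPM1 reads, 11.5% (9.21 to 14.1%) were intronic in siCtrl of batch 1, 48.7% (46.2 to 51.3%) under siStar-PAP, 63.6% (61.6 to 65.6%) under siPAPα, 69.1% (66.2 to 71.8%) in the library labelled siPAPγ and 68.4% (66.0 to 70.8%) in the double KD. In batch 2 the share was 51.9% (47.0 to 56.8%) in siCtrl and 89.0% (87.1 to 90.6%) in the library labelled siStar-PAP. Within each batch every KD lay above its siCtrl with no overlap of intervals, but siCtrl of batch 2 lay among the KD libraries of batch 1.

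**Figure D3:**
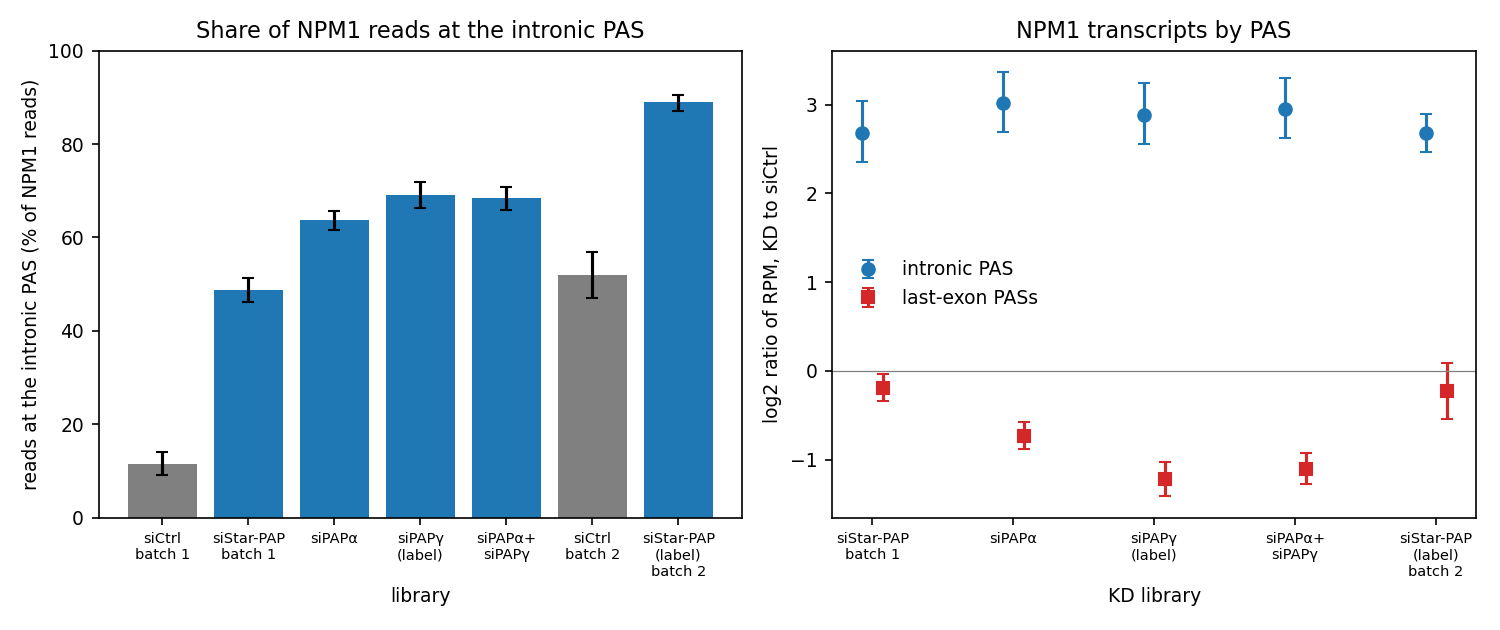
Left, share of NPM1 reads at the intronic PAS in each library with exact 95% intervals (grey, siCtrl); right, log2 ratio of RPM to siCtrl for NPM1 transcripts that end at the intronic PAS (circles) or in the last exon (squares). Intronic reads were 6.40 to 8.12-fold above siCtrl, and last-exon reads lay between -1.22 and -0.19 on the log2 scale.

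The share was higher by 37.2 percentage points under siStar-PAP, 52.1 under siPAPα, 57.6 in the library labelled siPAPγ, 56.9 in the double KD and 37.1 in the library labelled siStar-PAP of batch 2. These differences exceeded those of at least 98.8% of all PASs in their comparison. In RPM, NPM1 RNA that ended in the intron was 6.43-fold (79 to 736 reads), 8.12-fold (1409 reads), 7.40-fold (757 reads), 7.75-fold (1007 reads) and 6.40-fold (217 to 1169 reads) above siCtrl in the same order. NPM1 RNA that ended in the last exon had log2 ratios of -0.19 (-0.34 to -0.03), -0.73 (-0.88 to -0.58), -1.22 (-1.41 to -1.02), -1.10 (-1.28 to -0.92) and -0.22 (-0.54 to 0.09). The higher NPM1 level in the KDs was therefore made up of intronic reads, since those of the last exon were not higher in any KD.

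The intronic PAS of NPM1 lies within an annotated alternative last exon, chr5:170833401-170834129 on GRCh37, of the transcript NPM1-203. Both transcripts share 9 coding exons. The full-length NPM1-201 has 294 codons and NPM1-203 has 259, since 37 codons at the end of NPM1-201, which encode the part of nucleophosmin known to hold it in the nucleolus, are replaced by 2. No copy at 95% identity or more was found for the 100 nt before the intronic PAS, while 15 were found for those before the last-exon PAS at position 170837885 and 2 for position 170837904. At 90% or more, the intronic PAS had 3 copies, the best at 94.8% and thus just under the limit. The last-exon PASs had 30 and 5. The last-exon count may thus be too low and the intronic share too high in all libraries, and its part in the differences was not tested.

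Over both batches, the test of PAS use called neither site of NPM1. The log2 change relative to the gene was 0.97 for the intronic PAS (unadjusted p = 0.00161, adjusted p = 0.802, edgeR's diffSpliceDGE with batch as a block) and -1.07 for the last-exon PAS (unadjusted p = 0.000818, adjusted p = 0.620). The test called 4 of 14981 PASs (0.0267%), with 500 at an unadjusted p under 0.05, and none of 10 PASs of the 9 genes, of which the 2 of NPM1 were the ones with an unadjusted p under 0.05.

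The other genes differed less in PAS use within a table. A difference of 10 points or more was found for 5 of 14 tested PASs of the 9 genes under siStar-PAP (26.8% of all PASs), 5 of 14 under siPAPα (26.9%), 5 of 14 in the library labelled siPAPγ (22.9%), 3 of 16 in the double KD (23.7%) and 2 of 11 in the library labelled siStar-PAP of batch 2 (14.3%). In each of them 2 were the PASs of NPM1, which leaves 3, 3, 3, 1 and 0 PASs of the other genes.

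TPT1 ended at 3 PASs of its last exon. The proximal PAS took 62.2% of reads in siCtrl, 53.2% under siStar-PAP, 71.0% under siPAPα, 68.5% in the library labelled siPAPγ and 77.8% in the double KD. The middle PAS took 21.9%, 33.9%, 17.9%, 20.7% and 13.6%, and the distal PAS 16.0%, 12.9%, 11.1%, 10.7% and 8.63% in the same order. The siStar-PAP library thus lay below siCtrl at the proximal PAS and 12.1 points above it at the middle one, whereas the 3 other KD libraries lay above siCtrl at the proximal PAS, by 15.6 points in the double KD.

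In batch 2 the order of the TPT1 PASs was turned round, with 19.8% proximal, 16.6% middle and 63.6% distal in siCtrl and 14.8%, 16.6% and 68.7% in the library labelled siStar-PAP. The middle PAS, higher in siStar-PAP of batch 1, differed by -0.06 points in batch 2. BTF3 differed between the batches in the same way. Its proximal PAS was the one listed in the table of 4 conditions and took 98.9 and 99.3% of reads in the table of the double KD. In batch 2 it took 30.6% in siCtrl and 28.2% in the library labelled siStar-PAP. There the distal PAS took 61.4% and 65.8% and the middle one 7.96% and 5.95%. At 95% identity or more, the proximal PAS had 1 copy for TPT1 and 2 for BTF3, and the middle and distal PASs of both genes had none. The part of these copies in the difference between batches was not tested.

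**Figure D4:**
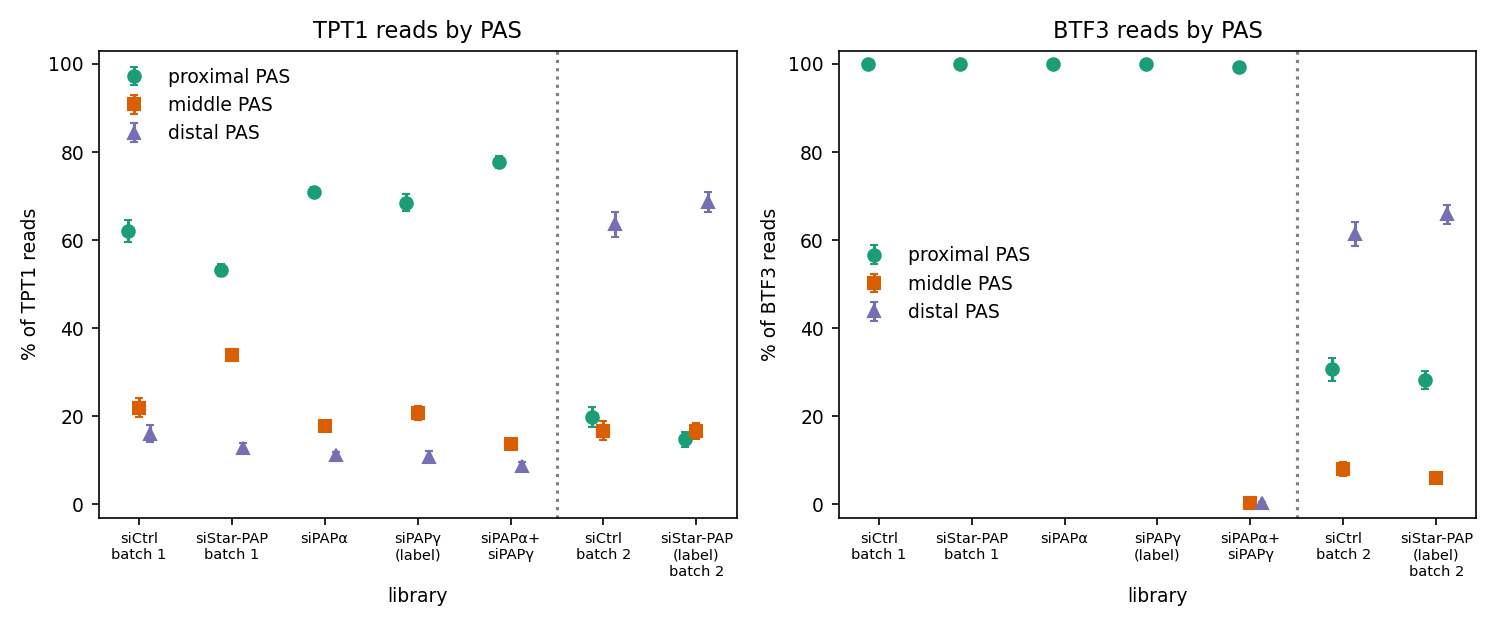
Share of TPT1 (left) and BTF3 (right) reads at the proximal, middle and distal PAS of the last exon in each library, with exact 95% intervals; the dotted line parts batch 1 and the double KD from batch 2. The distal PAS took 8.63 to 16.0% of TPT1 reads left of the line and 63.6 and 68.7% right of it; the middle and distal PASs of BTF3 are not in the table of the first 4 libraries.

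EEF1A1 reads were spread over 6 PASs with 84 reads in all in siCtrl of batch 1, and its differences rest on few reads. At 95% identity or more, the PAS at position 74227238 had 15 copies and the other PASs had none. The shares of the other PASs may thus be too high in all libraries. The part of these copies in the differences was not tested. The PAS at position 74225473 took 16 of 84 reads in siCtrl, 67 of 196 in siPAPα (34.2%, 15.1 points more) and 41 of 123 in the library labelled siPAPγ (33.3%, 14.3 points more), but 16 of 88 in siStar-PAP (18.2%). That at position 74224798 took 34.5% in siCtrl, 21.6% under siStar-PAP, 16.3% under siPAPα and 16.3% in the library labelled siPAPγ, and the intervals of siCtrl (24.5 to 45.7%) and siPAPα (11.4 to 22.3%) did not overlap.

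EEF1G used a PAS at position 62327068 for 63.2 to 77.6% of its reads in batch 1 and the double KD, and one at position 62326742, further downstream, for 19 of 100 reads in siCtrl and 22.4 to 35.1% in the KDs. An intronic PAS of EEF1G had 9 of 100 reads in siCtrl, 0 of 199 under siStar-PAP (up to 1.84%), 6 of 348 under siPAPα, 0 of 102 in the library labelled siPAPγ and 0 of 210 in the double KD. EEF2, EEF1B2 and NACA had 1 PAS with at least 5% of reads, in the last exon, and gave no comparison of PAS use.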

How the data were processed

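Total RNA of HEK293 cells was profiled by 3′READS or 3′READS+ in 7 libraries. Bowtie2 and hg19 were used by the authors for mapping, multi-mapped reads and those with fewer than 2 untemplated Ts were discarded, nearby sites (within 24 nt) were joined, and the deposited values are raw counts per PAS; 8 columns were used and 0 were left without a sample. RPM used the PASS read totals of the study. Gene levels were sums over sense PASs.

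Single KDs were compared as log2 ratios of RPM with exact conditional intervals, called past 1.4-fold with at least 50 reads in the pair, or, for PAS use, at 10 percentage points with at least 50 reads of the gene in each library. For siStar-PAP and siCtrl, counts of both batches were fitted with edgeR 4.0.16 in R 4.3.3 (quasi-likelihood, TMM factors, default filter, 1 residual degree of freedom, threshold 0.05) and, for PASs matched within 24 nt, with diffSpliceDGE. The labels give replicate 2 of both groups as batch 2, so batch was the block; deviations of libraries from their group means correlated at 0.858 within a batch, over 11614 genes. DESeq2 1.42.0 was an alternative. Both edgeR steps and the ratios were tested on simulated counts.

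Copies were searched with blastn 2.17.0 on GRCh37, over at least 90 of 100 nt. Intervals and figures were made with scipy 1.17.1, numpy 2.4.6, pandas 2.3.3 and matplotlib 3.10.9 in Python 3.11.15. The 9 genes and the gene lists were chosen with earlier results of these data known. All 9 genes and each PAS with at least 5% of a gene's reads were to be named, of each list the genes past the edgeR threshold (at most 4) or the highest and lowest, and the 5 genes with the nearest profile; some genes that this rule or the marker list names are not reported here.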

Additional observations from a re-analysis of the deposited data

Results flagged for a closer look

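EEF2 differed from siCtrl in opposite directions in siStar-PAP of batch 1 and the library so labelled in batch 2, with counting intervals off 0 in both. Its log2 ratio of RPM to siCtrl was -0.19 in batch 1 (7373 and 5810 reads in siStar-PAP and siCtrl) and 0.45 in batch 2 (72331 and 62730 reads). Relative to the median gene of each comparison, both were above 0 (0.25 and 0.62). The difference between the batches was not tested, since each holds 1 library per condition.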

How the results depend on the processing

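Star-PAP KD over both batches gave 266 called genes, 2 of the 9 among them, and a median log2 change of the 9 of 0.97. With PASS read totals as library sizes it gave 78 called genes, 0 of the 9 and a median of 0.60, and with table totals as library sizes 0 of the 9 were called. With no filter on low counts 473 genes were called. With no replicate block, 0 genes, 0 of the 9 and 0 PASs were called, and leaving out each of the 4 libraries without the block gave 0 to 0 called genes and 0 to 0 of the 9, with medians of 0.95 to 1.17. With batch 1 or batch 2 left out, the median was 0.94 in either case, from the libraries of 1 batch and with no test. DESeq2 called 274 genes and BTF3 besides (adjusted p = 0.0269). NPM1 and TPT1 had the same direction under all alternatives run, with log2 changes of 0.68 to 2.41 and adjusted p of 0.000682 to 1.00 for NPM1, and log2 changes of 0.79 to 1.98 and adjusted p of 0.00287 to 1.00 for TPT1.

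The number of the 9 genes above 1.4-fold depended on the scaling. It was 4 in siStar-PAP and 7 with TMM or RLE factors (medians 0.94 and 0.93), 0 in the library labelled siPAPγ and 4 with table totals and 5 with TMM or RLE factors, and 2 in the double KD and 6 with table totals (median 0.65) and 7 with TMM or RLE factors (medians 0.82 and 0.82). The median of the 9 in siPAPα was 0.68 with table totals, 0.89 with TMM and 0.86 with RLE factors, and in the library labelled siStar-PAP of batch 2 it was 0.94 with TMM, 0.95 with RLE factors and 0.46 with the EEF1G antisense site included. Above 2-fold stood 1 gene in siStar-PAP, 2 in siPAPα, 1 in the double KD and 1 in batch 2, and above 1.5-fold or with at least 200 reads 1 in the double KD. As shares of table reads, the 9 genes held 0.310%, 0.415%, 0.421%, 0.405% and 0.397% in siCtrl, siStar-PAP, siPAPα, the library labelled siPAPγ and the double KD, and 2.39% and 3.30% in batch 2.

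At 5 points, 10, 8, 10, 7 and 4 PASs of the 9 genes differed in the same order of KDs, and at 20 points 2 in siStar-PAP, siPAPα and the library labelled siPAPγ, which were those of NPM1. With at least 200 reads in each library, 3, 2 and 2 differed in these 3 libraries. Depth limits the values of EEF1A1 and EEF1B2, which had under 100 reads in siCtrl and siStar-PAP, and, in batch 2, those of EEF1D, EEF1G and NACA.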

Other observations

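Among the 5 other genes with at least 500 reads in every library whose profile over the 7 libraries was nearest to the mean profile of the 9 (root mean square of centred log2 RPM) were PHB (0.16), RPN2 (0.16), RPP21 (0.18) and TRIM39-RPP21 (0.19), where the median of 467 genes was 0.81. This profile spans both protocols, between which EEF2 and EEF1D differed in opposite directions, so that it is no comparison of KDs. RPP21 and TRIM39-RPP21 overlap and may share reads. Of the 9 genes themselves, EEF2 (2.59), EEF1D (2.54) and NACA (1.61) were farthest from that mean profile and EEF1G (0.31) and BTF3 (0.32) nearest.

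An upstream antisense PAS of EEF1G, at position 62342568 on the plus strand of chromosome 11, had 24 reads in siCtrl, 10 under siStar-PAP, 45 under siPAPα, 9 in the library labelled siPAPγ and 10 in the double KD, and 12 and 0 in siCtrl and the library labelled siStar-PAP of batch 2. In RPM these were 2.10, 0.604, 1.79, 0.608, 0.532, 2.38 and 0. This position lies within TUT1, whose own strand is the opposite one. In both libraries labelled siStar-PAP the RPM of EEF1G on its sense strand was higher than in siCtrl in both batches and that of the antisense PAS lower. The double KD had the same directions, with 11.2 RPM on the sense strand against 8.75 in siCtrl. So had siPAPα (13.9 RPM), where the antisense intervals overlapped. In the library labelled siPAPγ both strands were lower (6.89 RPM sense). The pattern was thus not particular to Star-PAP KD.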
